A study of Mus musculus with 34 samples.

Results

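Embryonic germ cell lines were compared here with germ cells taken from the male fetal gonad. The embryonic germ cells (EGC, 3 arrays) were male C57Bl/6 lines that had been derived from primordial germ cells of E12.5 embryos and analysed at passage 19, in medium with LIF and serum. Primordial germ cells of male C57Bl/6 embryos at E13.5 (male PGC, the XY germ cells of the plots, 3 arrays) had been sorted as positive for an Oct4/GFP reporter, so both groups were XY and of 1 strain, while the EGC were a cultured line and the PGC a sorted primary cell. These 6 arrays belong to a series of 34 from mouse, whose other groups are named only where they place a value: female PGC of E13.5 (3 arrays), PGC of E11.5 (4), embryonic stem cells (ESC, male, C57Bl/6, LIF and serum, passage 9 to 14, 2), the inner cell mass of E3.5 blastocysts from mixed-strain crosses (ICM, 3), embryonic fibroblasts from E13.5 at passage 2 (MEF, 6) and somatic cells of gonad and mesonephros at E11.5 that lacked the reporter (SGM, 4). The titles call the E11.5 PGC, ICM, MEF and SGM mixed, where they call the other groups named here male or female. The comparison asks how a line made from germ cells differs from germ cells that stayed in the embryo. The lines came from cells 1 day younger than the sorted ones. The labels do not say whether the 3 EGC arrays are 3 lines or 1 line grown 3 times. Every one of the 10833 probe sets that carry exactly 1 gene symbol was tested, and 8251 genes were then described, each by its brightest probe set.

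Primordial germ cells are the embryonic precursors of sperm and eggs. In the male gonad they stop dividing soon after they settle there and enter a long arrest in G1, while in the female gonad they enter meiosis. They express the pluripotency factors Oct4, Nanog and Sox2 and the germ line marker Dppa3, yet do not form teratomas easily or grow as lines by themselves. When they are cultured with LIF, Kit ligand and basic fibroblast growth factor, some convert into embryonic germ lines, which divide without limit and contribute to chimaeras much as ESC do. Cultured stem cells are known for a fast cycle with a short G1 and for high glycolysis.

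All values are log2 units of RMA signal, 1 per gene and array, and differences are EGC minus male PGC, given ± their standard error (SE) from limma. Calls required an adjusted p below 0.05, with Benjamini-Hochberg adjustment over the probe sets tested. At that threshold 3088 of 10833 probe sets (28.5%) were called, 1439 higher (13.3%) and 1649 lower (15.2%) in EGC. Among genes, 2491 of 8251 (30.2%) were called, 1206 higher (14.6%) and 1285 lower (15.6%). Large differences were mostly rises, since 470 genes rose (5.7%) and 139 fell (1.68%) at least 2-fold; among probe sets these were 536 (4.95%) and 170 (1.57%). The arrays of EGC and male PGC did not overlap in 4218 genes (51.1%). The median difference over all genes was -0.08. With each array centred on its median, 1600 probe sets were higher and 1166 lower, so the share that was higher depended on the scaling (57.8% of calls against 46.6% as deposited). Between any 2 arrays of the same group the correlation over the 10833 probe sets was 0.993 to 0.995, and between an EGC and a male PGC array 0.951 to 0.961. The p-values measure the spread between arrays of the same group, pooled over all 10 groups of the fit. That spread may be partly technical, because the labels call the arrays biological replicates without naming animals, cultures or lines.

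Some measures of the samples themselves moved with the groups. The 3' minus 5' log2 signal of the actin control probe sets was 1.72 to 1.99 in EGC and 0.21 to 0.51 in male PGC; for Gapdh it overlapped, with 3.07 to 3.23 in EGC and 3.11 to 3.98 in male PGC. The 18S control probe set read 14.23 to 14.56 in EGC and 14.82 to 15.42 in male PGC, without overlap. The part of RNA quality or amplification in the results below was not tested. Eif2s3y, a Y-linked gene, read 5.89, 5.24 and 5.88 in EGC, against 6.55, 6.68 and 6.08 in male PGC (not called, -0.77, adjusted p = 0.336), and averaged 3.76 in female PGC. Fewer cells of a type and less RNA per cell cannot be told apart in such bulk samples. Of 28 measured marker genes of gonad and mesonephros soma, 1 was higher and 8 were lower in EGC (32.1% called, near the 30.2% of all genes). With any 1 array left out, 4 to 9 were lower. Their summed linear signal was 5906 to 6284 in EGC, 6919 to 7270 in male PGC and 10190 to 10474 in SGM. Wt1 (-0.17, adjusted p = 0.445) and Amh (-0.09, adjusted p = 0.549) were not called. Of 14 erythroid genes, 0 were higher and 2 lower by limma (0 and 5 at an unadjusted p below 0.05). The share called was 14.3%, beside 30.2% of all genes. Their summed signal was 3525 to 3867 in EGC, 4018 to 4440 in male PGC and 22812 to 30671 in SGM. The part of remaining gonad or blood cells in the genes that fell was not tested.

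The 10 largest rises included a gap junction gene, a lactate dehydrogenase and smooth muscle actin, and the 10 largest falls included Dppa3, Rhox5 and Stag3. Gja1, which encodes the gap junction protein connexin 43, read 12.45, 12.72 and 12.99 in EGC, against 7.21, 7.19 and 7.65 in male PGC. The gap of 5.37 ± 0.26, adjusted p = 8.92e-15, or 41.3-fold, was the largest of all called genes, and a second Gja1 probe set gave 5.19. Ldha, the enzyme that turns pyruvate into lactate, read 13.90, 13.89 and 13.99 in EGC, against 9.62, 9.46 and 9.45 in male PGC, a difference of 4.42 ± 0.18, adjusted p = 5.5e-16, or 21.4-fold. In both genes the EGC level was close to that of ESC, where the mean was 12.37 for Gja1 and 13.63 for Ldha. Acta2, smooth muscle actin, read 14.34, 14.45 and 14.43 in EGC, against 10.68, 9.75 and 10.30 in male PGC; it stood 17.9-fold higher, at 4.17 ± 0.24, adjusted p = 1.88e-13. ESC averaged 10.92 for this gene and MEF 16.56. Prps1, which makes phosphoribosyl pyrophosphate for nucleotide synthesis, read 11.93, 11.53 and 11.74 in EGC, against 7.96, 7.74 and 7.50 in male PGC, or 16-fold higher in EGC. The Nodal co-receptor Tdgf1 (Cripto) read 9.47, 9.65 and 10.68 in EGC, against 6.00, 5.93 and 5.90 in male PGC, a difference of 3.99 ± 0.24, adjusted p = 9.23e-13. EGC replicate 3 lay about 1 log2 unit above the other EGC arrays. That the groups did not overlap was a condition for naming these 10 genes. The remaining 5 of the 10 largest rises were the glutathione transferase Gsta4 (3.77 ± 0.20, adjusted p = 5.71e-14), the annexin Anxa1 (3.54 ± 0.20, adjusted p = 1.84e-13), the fatty acid ligase Acsl4 (3.5 ± 0.29, adjusted p = 2.63e-10), the DNA methyltransferase Dnmt3a (3.42 ± 0.19, adjusted p = 1.44e-13, on 1 of its 2 probe sets) and the serum-induced kinase Sgk1 (3.33 ± 0.25, adjusted p = 7.74e-11). A second Acsl4 probe set rose by 1.23.

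The 10 largest falls covered a smaller range. Xlr4a, of the X-linked lymphocyte-regulated family, read 1.59, 1.77 and 1.39 in EGC, against 5.45, 5.48 and 4.53 in male PGC, 11.9-fold lower in EGC at -3.57 ± 0.37, adjusted p = 2.19e-08. Its EGC values were near the lowest signal on these arrays, 0.98 to 1.34 in EGC and 1.59 to 2.28 in male PGC, so that its fold is only a rough measure. Dppa3 (Stella), which protects the methylation of the maternal genome in the fertilised egg, read 8.41, 7.91 and 8.39 in EGC, against 11.46, 11.64 and 11.12 in male PGC, 8.99-fold lower at -3.17 ± 0.18, adjusted p = 1.88e-13. The X-linked homeobox gene Rhox5 read 8.13, 7.92 and 8.00 in EGC, against 10.66, 10.80 and 10.95 in male PGC, 6.9-fold lower at -2.79 ± 0.15, adjusted p = 1.2e-13. Both genes also separated EGC from ESC, which averaged 9.33 for Dppa3 and 10.66 for Rhox5; PGC of E11.5 averaged 11.43 for Dppa3. Phf13, a reader of histone methylation, fell by 2.61 ± 0.16, and Stag3, the cohesin subunit of meiotic chromosomes, read 6.35, 6.45 and 6.22 in EGC, against 8.90, 8.63 and 8.56 in male PGC and fell by 2.36 ± 0.11 (adjusted p = 5.17e-15). The chromatin remodelling ATPase Smarca2, whose EGC values (2.86 to 3.09) were also low, fell by 2.33 ± 0.20, and Sin3b, a scaffold of histone deacetylase complexes, by 1.95 ± 0.15. A second Sin3b probe set, at 7.14 to 7.51 on all 6 arrays, gave -0.20 and was not called. Hmgb3, an X-linked chromatin protein, fell by 1.88 ± 0.16 and the translation inhibitor Pdcd4 by 1.96 ± 0.28. The globin gene Hbb-b2 read 4.89, 5.12 and 4.93 in EGC, against 7.60, 7.11 and 6.64 in male PGC and fell by 2.14 ± 0.27; it averaged 10.50 in SGM.

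**Figure D1:**
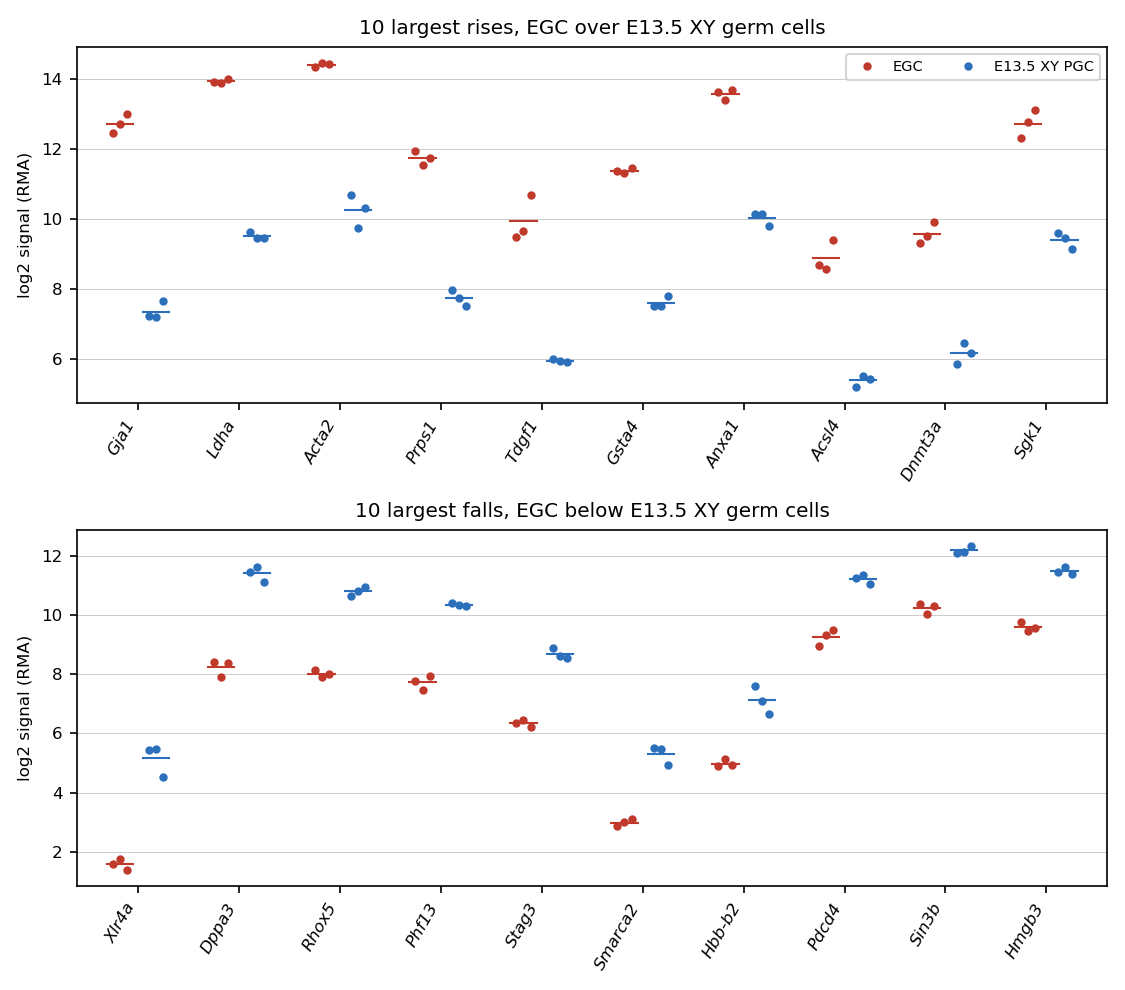
Log2 RMA signal (y axis) of the 10 genes with the largest rise and the 10 with the largest fall, with EGC in red left of male PGC of E13.5 in blue for each gene; each dot is 1 of 3 arrays and each line a group mean. The 20 genes were chosen among those whose arrays do not overlap, and run from Gja1 (5.37 higher in EGC) to Hmgb3 (1.88 lower).

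Genes of the germ line were mostly lower in the lines. Of 37 germ cell and piRNA genes in the list, 13 were measured, of which 2 rose and 7 fell (69.2% called, beside 30.2% of all genes). Their median difference was -0.69 against -0.08 over all genes. Leaving out any of the 6 arrays left both counts as they were. Besides Dppa3, the RNA helicase gene Ddx4 (mouse vasa homologue) read 3.47, 3.57 and 3.49 in EGC, against 5.47, 5.27 and 5.17 in male PGC, a difference of -1.79 ± 0.24, adjusted p = 2.05e-06. Kit, the receptor that germ cells need to survive and migrate, read 4.88, 4.72 and 4.57 in EGC, against 6.12, 6.69 and 6.42 in male PGC, a difference of -1.69 ± 0.25, adjusted p = 8e-06. In EGC the values of Ddx4 lay below the 5th percentile of gene levels (4.68) and those of Kit close to it, so the size of these falls is only a rough measure and no fold is given. Dazl, an RNA-binding protein that licenses germ cells for gametogenesis, read 5.89, 6.00 and 5.87 in EGC, against 7.38, 7.06 and 6.90 in male PGC, and a second Dazl probe set fell by 3.00. The groups did not overlap in Ddx4, Kit or Dazl, as in 51.1% of all genes. On these probe sets the male PGC did not stand above ESC for Ddx4 (5.30 in male PGC, 6.41 in ESC and 4.63 in MEF) or for Kit (6.41 in male PGC, 7.65 in ESC and 4.49 in MEF). The male PGC were above both for Dppa3 and Stag3. These genes were named for their large falls in the same values, so they give the label no separate support. The E11.5 PGC averaged 8.54 for Kit. Ifitm3 (Fragilis), a membrane protein that marks PGC precursors, was 10.05, 10.04 and 10.24 in EGC, against 11.45, 11.26 and 11.49 in male PGC (-1.29 ± 0.20, adjusted p = 1.65e-05). Prdm1, the repressor that starts the germ line, and Elavl2 both fell by 0.69. The tetraspanin Cd9 (1.14 ± 0.23, adjusted p = 0.0004) and the alkaline phosphatase Alpl (0.47 ± 0.12, adjusted p = 0.00313) rose, and Tfap2c (0.33, adjusted p = 0.139) was not called.

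The list of X-linked homeobox and testis antigen genes moved the same way. Of 12 measured members of 40, with a median of -0.55, 58.3% were called, beside 30.2% of all genes. None rose and 7 fell by limma (0 and 8 at an unadjusted p below 0.05). They include Xlr4a and Rhox5 as well as Rhox6, which read 5.56, 5.36 and 5.15 in EGC, against 6.24, 6.81 and 6.84 in male PGC. The list also holds autosomal genes: Tcl1, an Akt co-activator of stem cells, lies on chromosome 12 and fell by 1.54 ± 0.21, and Dazl, described above, is counted here again. Trap1a, a tumour antigen, was not called (0.35, adjusted p = 0.316). Of 14 measured meiosis genes of 31, 1 rose and 3 fell (28.6% called, beside 30.2% of all genes), and a fit of the 6 arrays alone put 6 lower. Brca2, needed for homologous recombination, fell by 1.02 ± 0.15. Trip13 rose by 0.59 and Syce2 fell by 0.54, but the call of Trip13 was lost without male PGC replicate 3 and that of Syce2 without EGC replicate 2 or male PGC replicate 1. Stra8, which starts meiosis in response to retinoic acid, averaged 8.53 in female PGC and was not called between the present groups (-0.48, adjusted p = 0.103). In the list of male fate and Nodal genes, 5 of 13 rose and 2 fell (53.8% called, beside 30.2% of all genes). The 2 falls were lost without EGC replicate 3 or male PGC replicate 2. Nodal itself, a ligand that fetal male germ cells and stem cells both use, read 9.70, 9.98 and 10.23 in EGC, against 8.75, 9.26 and 8.66 in male PGC, at 1.08 ± 0.18, adjusted p = 3.17e-05. Lefty1, its secreted inhibitor and target, rose by 0.89 ± 0.13 and the protease gene Ctsl by 1.97 ± 0.27.

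**Figure D2:**
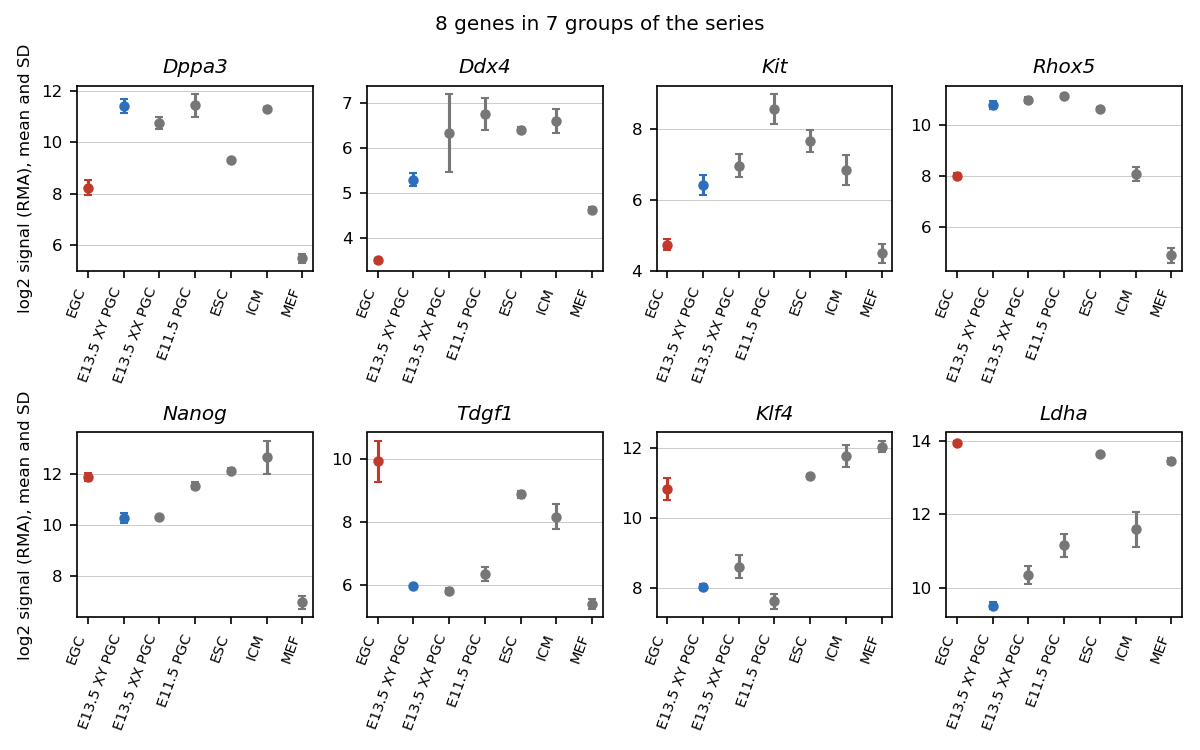
Log2 RMA signal (y axis, mean and SD over arrays) of 8 genes in 7 groups, EGC first and male PGC of E13.5 second, then female PGC of E13.5, PGC of E11.5, ESC, ICM and MEF. Dppa3 is at 8.24 in EGC and 11.41 in male PGC, while Ldha is at 13.93 in EGC and 9.51 in male PGC; the EGC level of Rhox5 (8.02) lies near that of ICM (8.08).

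The start regions of a fallen germ line gene and a fallen meiosis gene are shown because both hold the letters of the E-box and E2F motifs that repressors of the germ line programme are known to bind. The sequences are RefSeq's on GRCm38.p6, 300 bases around the start of the gene and mostly before it, 5' to 3' on the strand of the gene. Capitals mark the letters of the motif ACGTG, of the E-box CACGTG or of the E2F motif GCGGGAA, on either strand. Each CACGTG reads the same on both strands, so this 1 site counts as 2 matches to ACGTG. The Ddx4 window (chr13:112652261-112652560, minus strand) holds 2 matches to ACGTG, 1 of CACGTG and 1 of GCGGGAA; that of Stag3 (chr5:138280259-138280558, plus strand) holds 3, 1 and 1.
Ddx4: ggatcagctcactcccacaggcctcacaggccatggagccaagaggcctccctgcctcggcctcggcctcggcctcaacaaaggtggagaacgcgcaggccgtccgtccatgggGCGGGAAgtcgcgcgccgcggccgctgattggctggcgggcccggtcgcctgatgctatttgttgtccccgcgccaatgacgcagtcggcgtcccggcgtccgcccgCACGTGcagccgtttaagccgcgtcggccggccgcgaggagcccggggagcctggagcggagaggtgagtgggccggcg
Stag3: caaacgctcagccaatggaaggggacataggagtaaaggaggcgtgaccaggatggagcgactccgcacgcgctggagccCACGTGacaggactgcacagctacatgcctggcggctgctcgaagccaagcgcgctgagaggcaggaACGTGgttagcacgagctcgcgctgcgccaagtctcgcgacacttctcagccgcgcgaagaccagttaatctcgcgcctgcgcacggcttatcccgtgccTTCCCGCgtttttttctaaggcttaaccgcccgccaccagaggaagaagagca
Every CACGTG also holds ACGTG, so these counts overlap. The motifs were picked after the values were seen, and they describe these letters only. Of 6 fallen germ cell genes with a window, 3 held ACGTG, 1 CACGTG and 1 GCGGGAA. Among 6576 measured genes with a window the share was 27.8% for ACGTG and 8.52% for GCGGGAA, and 753 held CACGTG; over all 32851 windows the shares were 19.6% for ACGTG, 7.15% for CACGTG and 4.6% for GCGGGAA.

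Pluripotency factors stood higher in the lines than in the germ cells, though both groups had signal for them. Of 16 measured core pluripotency genes (21 listed), 11 rose and none fell by limma (12 and 1 at an unadjusted p below 0.05). The share called was 68.8%, beside 30.2% of all genes, and the median was 0.73. Without EGC replicate 3, 7 rose, and after quantile normalization 8 rose and 1 fell. Besides Tdgf1, Dppa2, a chromatin protein of pluripotent cells, read 11.96, 12.16 and 12.36 in EGC, against 9.40, 9.51 and 8.91 in male PGC, 7.38-fold higher at 2.88 ± 0.15, adjusted p = 5.71e-14. The nuclear receptor Nr0b1 (Dax1) read 10.53, 10.28 and 10.73 in EGC, against 8.20, 8.40 and 8.43 in male PGC, 4.51-fold higher. Fgf4, the growth factor through which stem cells signal to their neighbours, read 12.83, 12.86 and 12.93 in EGC, against 10.98, 10.74 and 10.90 in male PGC, 3.99-fold higher. The EGC mean of all 4 was above that of ESC, for example 12.16 in EGC and 10.48 in ESC for Dppa2. Nanog read 11.94, 11.74 and 12.05 in EGC, against 10.10, 10.48 and 10.27 in male PGC, 3.09-fold higher at 1.63 ± 0.21, adjusted p = 7.41e-07. A second Nanog probe set rose by 0.62. On the brightest one, PGC of E11.5 averaged 11.56 for Nanog and ESC 12.15. Sox2 averaged 11.80 ± 0.23 in EGC and 10.85 ± 0.20 in male PGC (SD, n = 3 each), 1.94-fold higher at 0.95 ± 0.15, adjusted p = 1.3e-05. Pou5f1 (Oct4), the gene of the reporter by which the PGC were sorted, read 10.23, 10.08 and 10.15 in EGC, against 9.43, 9.50 and 9.62 in male PGC, at 0.64 ± 0.20, adjusted p = 0.0193. That call did not survive leaving out EGC replicate 1 (adjusted p = 0.0589), EGC replicate 3 (0.0521) or male PGC replicate 1 (0.0646). It was also lost after quantile normalization (0.45, adjusted p = 0.114). A second Pou5f1 probe set gave -0.02. Sall4 (0.39, adjusted p = 0.0501), Dppa4 (-0.43, adjusted p = 0.0578) and Dppa5a (0.14, adjusted p = 0.512) were not called.

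Naive pluripotency and LIF response genes were less uniform, with 9 of 23 higher and 2 lower (47.8% called, beside 30.2% of all genes). Klf4, a target of LIF and one of the reprogramming factors, read 10.86, 10.52 and 11.14 in EGC, against 8.14, 8.00 and 7.99 in male PGC, 6.97-fold higher at 2.80 ± 0.28, adjusted p = 1.17e-08, close to the 11.21 of ESC; a second Klf4 probe set, at 4.19 to 4.61 on all 6 arrays and so below the 5th percentile of gene levels in EGC (4.68), gave 0.04. Gbx2, another LIF target, read 8.64, 8.85 and 8.73 in EGC, against 6.80, 7.10 and 7.09 in male PGC, 3.36-fold higher at 1.75 ± 0.14, adjusted p = 3.23e-10. The BMP targets Id1 (1.50 ± 0.25, adjusted p = 3.17e-05) and Id2 (1.90 ± 0.43, adjusted p = 0.00135), which block differentiation in serum, rose too. Stat3, the transcription factor that carries the LIF signal, was not called (0.17, adjusted p = 0.464), nor were Esrrb (-0.18, adjusted p = 0.272) and Klf2 (0.33, adjusted p = 0.184).

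**Figure D3:**
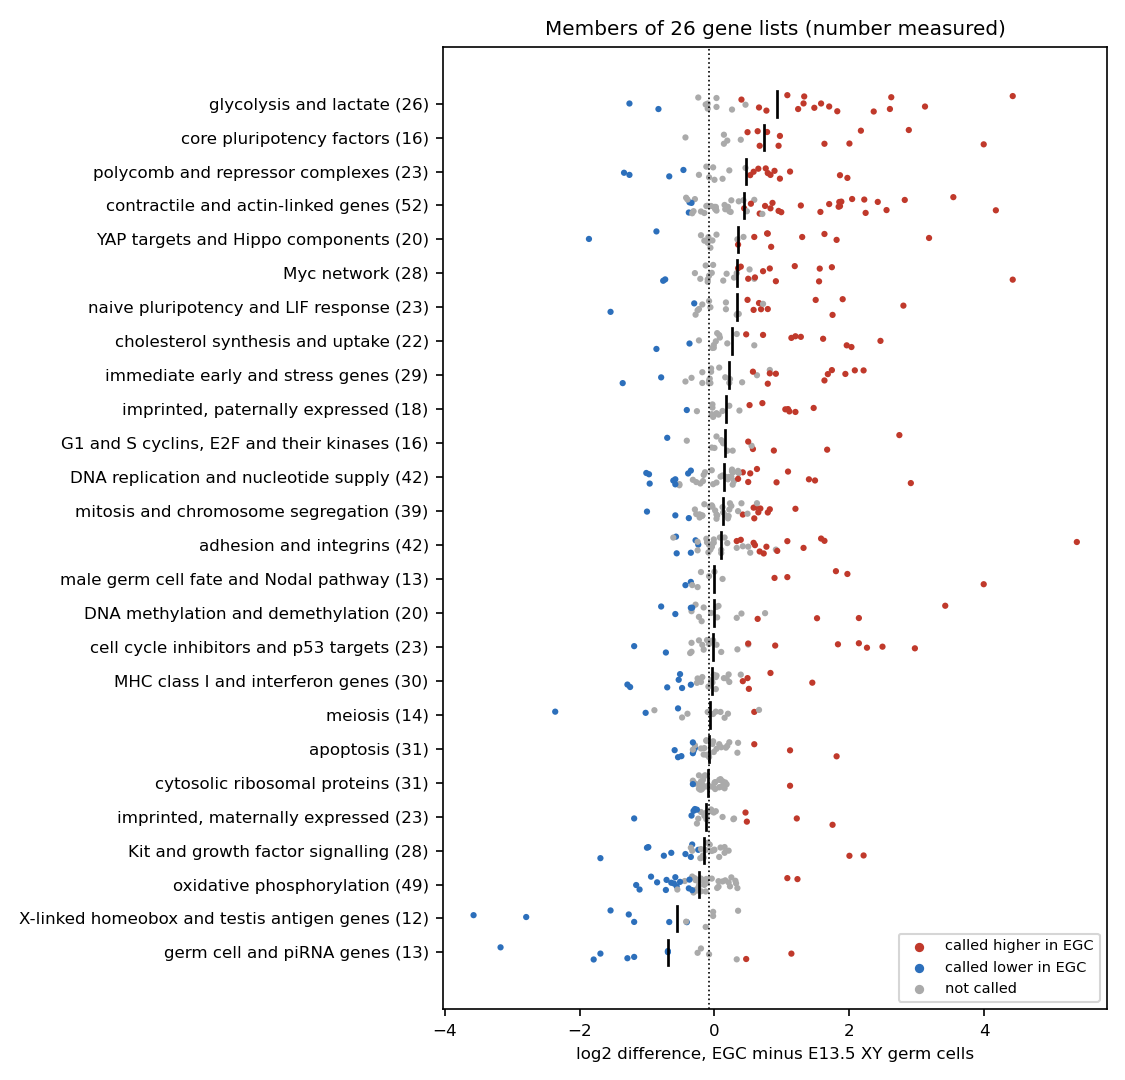
Log2 difference EGC minus male PGC (x axis) of each measured member of 26 gene lists (y axis), coloured red where called higher, blue where called lower and grey where not called, with the list median as a black bar and the median of all genes (-0.08) as a dotted line. Glycolysis has the highest median (0.93) and germ cell genes the lowest (-0.69).

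Genes of glycolysis were the list with the highest median, 0.93. Of 26 measured members of 31, 16 rose and 2 fell (69.2% called, beside 30.2% of all genes). Rises of at least 2-fold numbered 13, and leaving out any array left 15 or 16 higher and 2 lower. Hk2, the hexokinase of fast-growing cells, read 10.14, 9.93 and 10.36 in EGC, against 6.69, 7.37 and 7.02 in male PGC, 8.68-fold higher at 3.12 ± 0.32, adjusted p = 2.55e-08; a second Hk2 probe set, at 3.73 to 4.41 on all 6 arrays and so below the 5th percentile of gene levels in EGC (4.68), gave -0.19. The glucose transporter Slc2a1 (Glut1) read 11.22, 11.09 and 11.54 in EGC, against 8.88, 8.70 and 8.50 in male PGC, 6.05-fold higher at 2.60 ± 0.15, adjusted p = 1.88e-13. Tpi1, triose phosphate isomerase, read 12.65, 12.39 and 12.73 in EGC, against 9.81, 9.95 and 10.16 in male PGC, 6.15-fold higher. Hk2, Slc2a1, Tpi1 and Ldha were named for the largest differences among called members, so their wide gaps follow from that choice. Pgk1, phosphoglycerate kinase, rose by 2.36 ± 0.17, and Pdk1, which keeps pyruvate out of the mitochondrion, by 1.58. Bnip3, a mitochondrial protein induced by low oxygen together with glycolytic enzymes, read 10.41, 9.67 and 10.38 in EGC, against 8.61, 8.49 and 8.26 in male PGC, 3.25-fold higher. The isoforms that fell were Ldhb, the lactate dehydrogenase subunit that favours pyruvate, and Pdk3. Ldhb read 10.19, 9.92 and 9.97 in EGC, against 10.72, 10.99 and 10.84 in male PGC, at -0.83 ± 0.17, adjusted p = 0.000453, and Pdk3 fell by 1.26 ± 0.18. Hk1, the other main hexokinase, was not called (-0.24, adjusted p = 0.325).

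Oxidative phosphorylation leaned the other way, with a smaller median of -0.23. Of 49 measured genes of 59, 2 rose and 14 fell (32.7% called, beside 30.2% of all genes). Falls numbered 11 to 15 with any 1 array left out, 12 with median-centred arrays and 26 after quantile normalization. Ndufa2, a subunit of complex I, read 9.26, 9.32 and 9.18 in EGC, against 10.32, 10.55 and 10.37 in male PGC, 2.23-fold lower at -1.16 ± 0.17, adjusted p = 6.06e-06, and Ndufb8 of the same complex fell by 1.11 ± 0.32. The genes that rose were both subunits of complex II, Sdha (1.23 ± 0.23, adjusted p = 0.000142) and Sdhd (1.08 ± 0.21, adjusted p = 0.000235). Of 22 cholesterol synthesis and uptake genes, 9 rose and 2 fell (50% called, beside 30.2% of all genes), 7 of the rises at least 2-fold. Scd1 (2.46 ± 0.24, adjusted p = 7.85e-09) and Scd2 (2.03 ± 0.13, adjusted p = 1.76e-12), which desaturate fatty acids, led them, followed by Hmgcs1 (1.96 ± 0.44, adjusted p = 0.00116) and Idi1 (1.61 ± 0.27, adjusted p = 3.62e-05) of the mevalonate pathway. Further Scd1 probe sets gave 2.99, called higher, and 0.28, not called, and a second Scd2 probe set rose by 1.13.

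**Figure D4:**
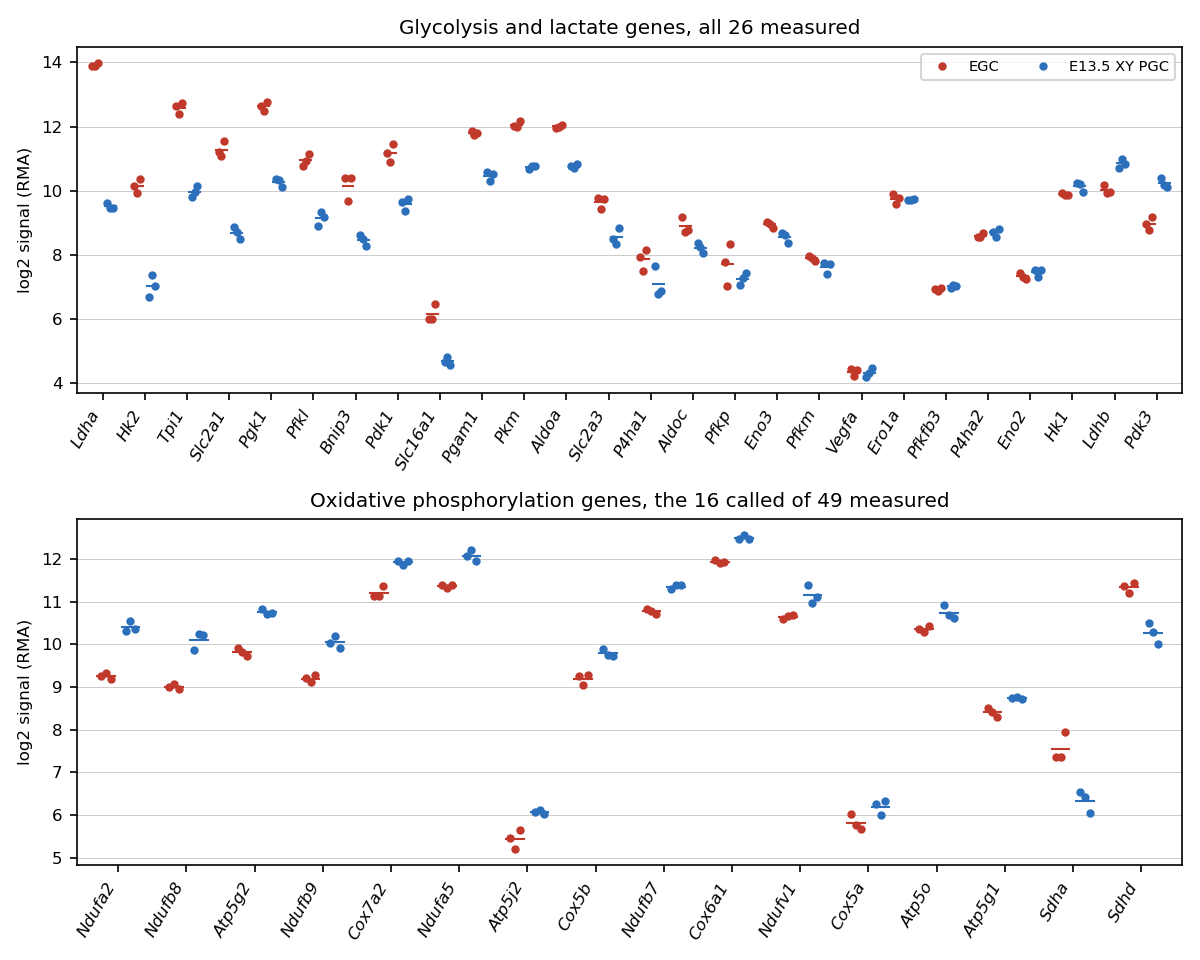
Log2 RMA signal (y axis) of the 26 measured glycolysis genes and of the 16 called oxidative phosphorylation genes, with EGC in red left of male PGC in blue and 1 dot per array. Ldha shows the widest gap (13.90 to 13.99 in EGC, 9.45 to 9.62 in male PGC); Sdha and Sdhd are the only called oxidative phosphorylation genes that were higher in EGC.

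The start regions of Ldha and Bnip3 are shown because the letters ACGTG, the core to which hypoxia-inducible factors are known to bind and part of the E-box of Myc, stood in 11 of the 15 risen glycolysis genes that have a window, against 27.8% of 6576 measured genes. CACGTG stood in 3 of the 15 and GCGGGAA in 4. Capitals mark these letters as above, and each CACGTG site again counts as 2 matches to ACGTG. The Ldha window (chr7:46845554-46845853, plus strand) holds 5 matches to ACGTG on either strand, 2 to CACGTG and 1 to GCGGGAA; that of Bnip3 (chr7:138909457-138909756, minus strand) holds 2 to ACGTG and 1 to CACGTG.
Ldha: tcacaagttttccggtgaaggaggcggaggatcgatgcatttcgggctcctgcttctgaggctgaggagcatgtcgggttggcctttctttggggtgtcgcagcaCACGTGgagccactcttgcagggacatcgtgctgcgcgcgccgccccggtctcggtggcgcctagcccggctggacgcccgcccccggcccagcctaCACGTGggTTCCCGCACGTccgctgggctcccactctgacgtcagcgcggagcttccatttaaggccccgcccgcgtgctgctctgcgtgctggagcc
Bnip3: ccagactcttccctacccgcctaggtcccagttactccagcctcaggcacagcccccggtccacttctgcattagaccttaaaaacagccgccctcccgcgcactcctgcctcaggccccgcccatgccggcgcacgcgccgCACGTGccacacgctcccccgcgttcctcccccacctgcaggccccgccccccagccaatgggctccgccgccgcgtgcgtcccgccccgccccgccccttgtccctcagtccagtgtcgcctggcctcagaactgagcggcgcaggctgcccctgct
These motifs too were chosen with the values known. A match is no measurement of binding.

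Genes of growth and the cell cycle differed in parts rather than as a block. Mycn and Myc, which drive growth and ribosome production, were higher: Mycn read 12.11, 12.28 and 12.42 in EGC, against 10.69, 10.39 and 10.50 in male PGC, at 1.74 ± 0.18, adjusted p = 2.05e-08, and Myc read 6.11, 6.36 and 6.29 in EGC, against 4.75, 4.75 and 4.57 in male PGC, at 1.56 ± 0.18, adjusted p = 1.69e-07. A second Mycn probe set, as low as that of Hk2 (3.61 to 4.07), gave -0.02. In the Myc network 12 of 28 genes rose and 2 fell (50% called, beside 30.2% of all genes). The falls were Mycl (-0.73 ± 0.16, adjusted p = 0.000663) and the pyrimidine enzyme Cad (-0.76 ± 0.15, adjusted p = 0.000305). Only 2 of 31 cytosolic ribosomal protein genes were called, 1 in each direction (6.45%, beside 30.2% of all genes); after quantile normalization 12 were lower. Ccnd1 (cyclin D1), which drives entry into S phase, read 12.14, 12.34 and 12.39 in EGC, against 9.76, 9.40 and 9.50 in male PGC, 6.66-fold higher at 2.74 ± 0.18, adjusted p = 3.41e-12; its second probe set, at 8.27 to 8.34 on all 6 arrays, gave 0.03. Cyclin D3 (Ccnd3) was not called (0.00, adjusted p = 0.989). Across 16 G1 and S cyclins, E2F factors and their kinases, 5 rose and 1 fell (37.5% called, beside 30.2% of all genes). The fall was that of E2f1, by 0.70 ± 0.11. Cks1b, a kinase subunit, rose by 1.67 ± 0.22. The 5 rises became 3 without EGC replicate 2, EGC replicate 3 or male PGC replicate 3.

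Among cell cycle inhibitors and p53 targets, 7 of 23 rose and 2 fell (39.1% called, beside 30.2% of all genes, and a median of -0.02). The p53 targets Ccng1 (2.97 ± 0.23, adjusted p = 8.75e-11) and Perp (2.49 ± 0.31, adjusted p = 4.26e-07) rose most, with Gadd45g (2.26 ± 0.31, adjusted p = 2.24e-06) and Gadd45a (2.14 ± 0.24, adjusted p = 8.38e-08). Ccng1 read 10.96, 11.30 and 11.42 in EGC, against 8.27, 8.22 and 8.28 in male PGC. The inhibitor p57 (Cdkn1c), an imprinted gene that is known to be expressed in arresting male germ cells, read 6.95, 7.32 and 7.35 in EGC, against 8.31, 8.35 and 8.53 in male PGC, 2.28-fold lower at -1.19 ± 0.27, adjusted p = 0.00137. The inhibitors p27 (Cdkn1b, -0.34, adjusted p = 0.137) and p21 (Cdkn1a, -0.02, adjusted p = 0.952) were not called. Of 42 DNA replication and nucleotide supply genes, 10 rose and 8 fell (42.9% called, beside 30.2% of all genes). Rrm2, the ribonucleotide reductase subunit of S phase, read 12.46, 12.69 and 13.08 in EGC, against 10.15, 9.75 and 9.61 in male PGC, 7.51-fold higher at 2.91 ± 0.28, adjusted p = 5.88e-09; PGC of E11.5 averaged 11.86. The loading factor Cdc6 (1.49 ± 0.18, adjusted p = 2.56e-07), Orc5 of the origin recognition complex (1.40 ± 0.15, adjusted p = 4.9e-08) and the helicase subunit Mcm4 (1.09 ± 0.22, adjusted p = 0.000383) followed. A second Orc5 probe set, at 4.04 to 4.63 on all 6 arrays, gave -0.24 and was not called. Rises numbered 6 without EGC replicate 3 or male PGC replicate 3. Of 39 mitosis genes 9 rose and 3 fell (30.8% called, beside 30.2% of all genes), and after quantile normalization 6 fell. The called ones included Ect2 (1.20 ± 0.23, adjusted p = 0.000194) and the securin gene Pttg1 (-1.0 ± 0.16, adjusted p = 2.31e-05). The proliferation marker Mki67 was not called (-0.04, adjusted p = 0.953).

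In the chromatin lists single enzymes stood out. Dnmt3a, the methyltransferase that sets new DNA methylation, read 9.30, 9.52 and 9.91 in EGC, against 5.85, 6.46 and 6.17 in male PGC, 10.7-fold higher at 3.42 ± 0.19, adjusted p = 1.44e-13, while its second probe set fell by 0.52 and was called the other way. That second probe set read only 2.70, 2.86 and 2.97 in EGC, against 3.34, 3.33 and 3.41 in male PGC, below the 5th percentile of gene levels in EGC (4.68). Uhrf1, which brings the maintenance methyltransferase to replicating DNA, read 12.32, 12.52 and 12.77 in EGC, against 11.24, 10.99 and 10.81 in male PGC, 2.87-fold higher. Tet1, which oxidises methylated cytosine, was 0.64 ± 0.13, adjusted p = 0.000505, on its brightest probe set. As the mean over its probe sets it gave 0.19 and was not called (adjusted p = 0.158). In the list of DNA methylation and demethylation 4 of 20 rose and 4 fell (40% called, beside 30.2% of all genes), and the falls numbered 1 without male PGC replicate 2 and 2 without EGC replicate 1, EGC replicate 3, male PGC replicate 1 or male PGC replicate 3. Polycomb and repressor complex genes were called in 15 of 23 (65.2%, beside 30.2% of all genes), 11 higher and 4 lower. Their median was 0.46, and 7 were higher after quantile normalization. Among subunits of the complex that methylates histone H3 at lysine 27, Eed rose, at 1.97 ± 0.32, adjusted p = 2.41e-05, as did Suz12 (1.12 ± 0.29, adjusted p = 0.00409) and Ezh2 (0.89 ± 0.23, adjusted p = 0.00501). Eed read 9.84, 9.71 and 10.09 in EGC, against 8.02, 8.05 and 7.65 in male PGC. Ezh1, the alternative catalytic subunit of that complex, fell and read 6.63, 6.25 and 6.67 in EGC, against 7.90, 7.93 and 7.75 in male PGC, at -1.34 ± 0.13, adjusted p = 7.63e-09, and Bmi1, of the other polycomb complex, read 7.74, 7.90 and 7.94 in EGC, against 9.18, 9.36 and 8.83 in male PGC, at -1.26 ± 0.22, adjusted p = 5.5e-05.

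Imprinted genes, which are expressed from the allele of 1 parent and whose marks are erased in PGC around E11.5 to E13.5, did not move as 1 group. Of 18 paternally expressed genes 7 rose and 1 fell (44.4% called, beside 30.2% of all genes). Sfmbt2, a polycomb protein, read 7.47, 7.33 and 7.42 in EGC, against 5.47, 6.24 and 6.09 in male PGC; Impact (1.20 ± 0.21, adjusted p = 9.12e-05), Peg3 (1.11 ± 0.23, adjusted p = 0.000513) and the amino acid transporter Slc38a4 (1.09 ± 0.12, adjusted p = 1.1e-07) followed. Further Peg3 probe sets gave 0.45, called higher, and 0.24, not called. Igf2 was not called (-0.03, adjusted p = 0.922). Among 23 maternally expressed genes, the placental growth regulator Phlda2 (1.75 ± 0.18, adjusted p = 2.99e-08) and the tetraspanin Cd81 (1.22 ± 0.16, adjusted p = 1.38e-06) led the rises and Cdkn1c the falls. In that list 4 rose and 5 fell (39.1% called, beside 30.2% of all genes). These counts were not firm: 2 rose without any 1 of the EGC arrays or without male PGC replicate 2 or 3, and 2 fell without EGC replicate 1 or 3, or 3 without male PGC replicate 1 or 3. Arrays do not tell the parental alleles apart.

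Contractile and actin-linked genes held 23 rises, the most of any list, and were also the list with the most measured members. Of 52 measured genes 23 rose, 15 of them at least 2-fold, and 3 fell (50% called, beside 30.2% of all genes). The median was 0.44, and 1 fell without EGC replicate 3. After Acta2 and Anxa1 came the calcium-binding protein S100a6 (2.82 ± 0.20, adjusted p = 2.31e-11) and the tropomyosin Tpm4 (2.55 ± 0.23, adjusted p = 1.83e-09). Fibroblasts express these genes strongly (MEF averaged 16.52 for S100a6 and 16.18 for Anxa1). Of 33 measured fibroblast and mesenchyme markers, 8 rose and 1 fell (27.3% called, beside 30.2% of all genes), with a median of 0.01 and none at 2-fold. Their summed linear signal was 18521 to 19419 in EGC, 15589 to 17519 in male PGC and 347666 to 408282 in MEF. The collagen genes Col1a2 (0.02, adjusted p = 0.928) and Col3a1 (0.20, adjusted p = 0.263), at 16.09 and 14.03 in MEF, were not called, and Col1a1 read 9.69, 9.45 and 9.31 in EGC, against 9.78, 9.44 and 9.58 in male PGC. Postn, a secreted matrix protein of fibroblasts, rose by 0.68 and averaged 6.83 in EGC, 6.15 in male PGC and 12.36 in MEF. The actin control probe sets, whose 3' and 5' signals differed by group as given above, bear on the same family of genes, and their part in the result was not tested.

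YAP, the effector of the Hippo pathway, responds to cell shape and contact. Of 20 measured YAP targets and Hippo components, taken as 1 list, 9 rose and 2 fell (55% called, beside 30.2% of all genes). Ccn2 (Ctgf), a classical target, read 10.51, 10.72 and 10.68 in EGC, against 7.39, 7.27 and 7.70 in male PGC, 9.07-fold higher at 3.18 ± 0.20, adjusted p = 1.3e-12; ESC averaged 9.50 and MEF 13.69. Ccn1 (Cyr61, 1.63 ± 0.18, adjusted p = 5.75e-08), Amotl2 (1.81 ± 0.25, adjusted p = 2.54e-06) and Yap1 itself (1.30 ± 0.12, adjusted p = 1.16e-09) rose, and Lats2, the kinase that inhibits YAP, averaged 9.69 ± 0.30 in EGC and 11.55 ± 0.41 in male PGC (SD, n = 3 each), 3.63-fold lower at -1.86 ± 0.36, adjusted p = 0.000245. Adhesion and integrin genes held 13 rises and 5 falls among 42 (42.9% called, beside 30.2% of all genes). After Gja1 came the integrin Itga6 (1.63 ± 0.19, adjusted p = 2.05e-07), the epithelial adhesion molecule Epcam (1.58 ± 0.29, adjusted p = 0.000132) and the claudin Cldn7 (1.32 ± 0.24, adjusted p = 9.95e-05). The falls in this list numbered 2 without EGC replicate 1 and 3 without male PGC replicate 1 or 3. Of 29 immediate early and stress genes 10 rose and 2 fell (41.4% called, beside 30.2% of all genes). They were led by the phosphatase Dusp6, a feedback inhibitor of ERK signalling (2.21 ± 0.34, adjusted p = 1.03e-05), and by Klf6 (2.08 ± 0.24, adjusted p = 1.09e-07). Fos (1.94 ± 0.37, adjusted p = 0.000227) and Egr1 (1.74 ± 0.20, adjusted p = 1.61e-07) followed. Second probe sets of Dusp6 (-0.28), Fos (-0.14) and Egr1 (-0.27) were not called.

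Of 28 Kit and growth factor signalling genes, 2 were higher and 9 lower (39.3% called, beside 30.2% of all genes, of which 15.6% were lower). The falls numbered 5 without EGC replicate 3 or with median-centred arrays. The 2 rises were Fgf4 and Dusp6, and Kit and the receptor Erbb3 (-1.0 ± 0.27, adjusted p = 0.0054) led the falls. A second Erbb3 probe set gave -0.24 and was not called. Among 30 MHC class I and interferon genes 5 rose and 7 fell (40% called, beside 30.2% of all genes). B2m, the invariant light chain of MHC class I, rose by 1.45 ± 0.35, while Ifitm3 and the proteasome activator Psme1 (-1.25 ± 0.20, adjusted p = 1.62e-05) fell. A second Psme1 probe set gave -0.36 and was not called. Rises in this list numbered 3 without EGC replicate 1. Of 31 apoptosis genes 3 rose and 7 fell (32.3% called, close to the share of all genes), and the falls numbered 2 without EGC replicate 3, 3 without male PGC replicate 3 and 4 without EGC replicate 1 or male PGC replicate 2. Mcl1, a survival factor of the Bcl2 family, read 11.49, 11.52 and 11.91 in EGC, against 9.93, 9.92 and 9.64 in male PGC, 3.5-fold higher at 1.81 ± 0.12, adjusted p = 4.73e-12, and Apaf1, a core of the caspase-activating complex, was 1.12 ± 0.30, adjusted p = 0.0053. Genes of early differentiation and neural fate were 5 higher and 4 lower of 24 (37.5% called, beside 30.2% of all genes), with a median of -0.14. Their summed signal was 5396 to 6240 in EGC and 3913 to 3965 in male PGC; such a sum is weighted towards members with a high signal. Sox11, a transcription factor of progenitor cells, read 11.02, 11.44 and 11.53 in EGC, against 8.26, 8.59 and 8.53 in male PGC, 7.3-fold higher. Other marker lists were called at or below about the share of all genes (30.2%). Of 24 primitive endoderm genes 3 rose and 1 fell (16.7% called), with 1 to 3 rises and 0 to 1 fall when any 1 array was left out. Of 22 trophectoderm genes 3 rose and 2 fell (22.7%), with 2 rises and 0 to 2 falls when an array was left out. Of 16 endothelial genes 1 rose and 4 fell (31.2%), with 1 to 3 falls, and of 18 macrophage genes 1 rose and 3 fell (22.2%), with 0 to 1 rise and 1 to 2 falls.

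The difference between EGC and male PGC was then set against that between ESC and ICM, the other cultured line and embryonic source in the series; these 2 comparisons share no array. ESC minus ICM called 2288 of 8251 genes (27.7%). The difference of the differences was called in 2643 genes (32%), 1153 higher (14%) and 1490 lower (18.1%). Over probe sets it was called in 3332 of 10833 (30.8%), 1385 higher (12.8%) and 1947 lower (18%), of which 802 (7.4%) and 386 (3.56%) differed by at least 2-fold. The majority depended on the scaling, since median-centred arrays gave 1700 higher and 1238 lower (57.9% of calls higher, against 41.6% as deposited). Over all genes the 2 differences hardly moved together (Pearson's r = 0.08, Spearman's rho = 0.06 across genes, which are not independent replicates). Of 832 genes called in both, 468 had the same sign and 364 opposite signs: 206 were higher in EGC than in male PGC but lower in ESC than in ICM, and 158 the reverse. The 18S control probe set read 10.20 to 10.89 in ESC and at most 11.08 in ICM, over 3 log2 units below EGC and male PGC, and the part of that gap in these counts was not tested. Strain, sex and culture passage differ between ESC and ICM as well, and cannot be told apart from the step into culture there.

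Among genes of opposite sign, the autophagy receptor Calcoco2 had the widest gap, 6.16 ± 0.26. It was 1.66 ± 0.17, adjusted p = 2.21e-08 in EGC minus male PGC and -4.49 in ESC minus ICM. The late endosomal tetraspanin Cd63 (5.40 ± 0.28), the prostaglandin reductase Ptgr1 (4.47 ± 0.51), Dppa2 (4.43 ± 0.23) and the lysosomal protease Ctsc (4.30 ± 0.38) followed. Further Ctsc probe sets gave -0.08 and -0.00 in EGC minus male PGC, neither called. For Dppa2 the ESC averaged 10.48 and ICM 12.03. In the other direction Rhox5 led, at -5.37 ± 0.23: ESC averaged 10.66 and ICM 8.08, the opposite order to that of EGC and male PGC. Pdk3 (-4.43 ± 0.27), the slow-muscle troponin Tnnt1 (-3.88 ± 0.40), the transcription factor Klf7 (-3.62 ± 0.38) and the basement membrane protein Nid2 (-3.23 ± 0.55) came next. The call of Nid2 between EGC and male PGC was lost without EGC replicate 2, male PGC replicate 1 or male PGC replicate 2, and its SD in ICM was 1.27.

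**Figure D5:**
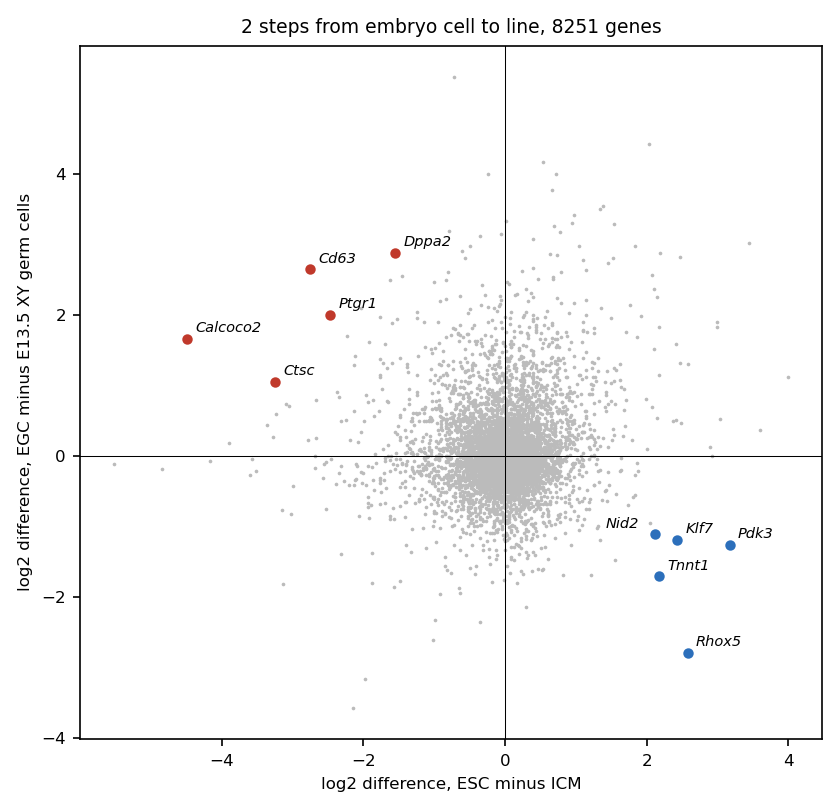
Log2 difference EGC minus male PGC (y axis) against log2 difference ESC minus ICM (x axis) for 8251 genes, 1 point per gene, with 10 genes of opposite sign in colour. Calcoco2, Cd63, Ptgr1, Dppa2 and Ctsc lie to the upper left and Rhox5, Pdk3, Tnnt1, Klf7 and Nid2 to the lower right of a cloud without slope (r = 0.08).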

How the data were processed

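Affymetrix arrays measured RNA abundance. The labels' protocols give column-purified, DNase-treated RNA and 2 successive in vitro transcriptions, the second with a biotin label. The deposited values are log2 signals per probe set that the authors made with RMA, per the submitters' processing notes; the version is not given in the sources used here. RMA corrects background, normalizes between arrays and summarises probes, so small differences depend on that scaling, and precision is limited by the number of arrays, which have no depth. Of 34 columns, 2 were the means of other columns within 1e-06 (ESC replicate 3 and PGC E11.5 replicate 5) and did not enter the fit of the other 32 arrays, in 10 groups.

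Of 12488 probe sets, 10833 had exactly 1 symbol in the platform annotation, 396 several, 1193 none, and 66 were controls. Symbols were updated by gene ID for 10817 and kept from the file for 16. For each gene the brightest probe set was taken (8251 genes, 2073 with more than 1 probe set). The fit used limma 3.58.1 (lmFit and eBayes) in R 4.3.3, with 1 mean per group (all 10 groups sharing 1 estimate of spread, 22 residual and 4.96 prior degrees of freedom, median residual SD 0.161), two-sided, with Benjamini-Hochberg adjustment over 10833 probe sets. No filter on low signal was used. The same model was also run on simulated data, whose group means and spread were taken from a fit of these arrays. Errors are SE for differences and SD for group means.

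The members and gene lists were chosen with earlier results of these data known, so list counts are descriptions. The rule for naming took, from called genes without overlap between arrays, 10 with the largest rise and 10 with the largest fall, then up to 4 called members per list by size of difference, the 5 most positive and 5 most negative opposite-sign genes between EGC minus male PGC and ESC minus ICM, a fixed set of marker genes, and members named as not called. Alpl, Bnip3, Cad, Cd9, Elavl2, Ezh2, Id1, Ldhb, Lefty1, Mycl, Pdk1, Pgk1, Postn, Prdm1, Suz12, Tet1 and Yap1 lie outside that rule and were chosen after their values were seen, as were the promoter windows (RefSeq, GRCm38.p6) and their motifs. Alternatives were the fit of the compared groups alone, the replicate block, each array left out, all 34 columns, median centring, quantile normalization, a filter on low mean signal, array weights, an intensity trend, 1 probe set per gene, the mean of probe sets, and plain probe sets only. The replicate numbers were not taken as pairs: like-numbered arrays had residual correlations of 0.0698, -0.138 and -0.254.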

Additional observations from a re-analysis of the deposited data

Results flagged for a closer look

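The difference between EGC and male PGC differed from that between ESC and ICM in 2643 genes by the test of the difference of differences (limma, adjusted p under 0.05), in 4 groups that share no array. The genes with called changes of opposite sign and the widest gaps are listed as values only. Calcoco2 differed by 6.16 between the comparisons and averaged 6.33 in ESC and 10.83 in ICM. Cd63 differed by 5.40, being 2.65 higher in EGC than in male PGC and -2.75 in ESC minus ICM. Ptgr1 differed by 4.47 (2.00 in EGC minus male PGC, -2.47 in ESC minus ICM). Dppa2 differed by 4.43 (2.88 and -1.55 in the same order) and Ctsc by 4.30 (1.05 and -3.25). Further Ctsc probe sets gave -0.08 and -0.00 in EGC minus male PGC. Rhox5 differed by -5.37 (-2.79 in EGC minus male PGC, 2.58 in ESC minus ICM). Pdk3 differed by -4.43 (-1.26 and 3.17) and Tnnt1 by -3.88 (-1.71 and 2.17). Klf7 differed by -3.62 (-1.19 and 2.43) and Nid2 by -3.23 (-1.11 and 2.12). ESC had 2 arrays and ICM came from other strains than the rest, and the part of either in these gaps was not tested.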

How the results depend on the processing

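With 3 arrays a group, precision was limited by the number of arrays. Of the 10 counts of called probe sets, 190 of 195 values under the alternatives stayed within 1.5 times of those reported. The exceptions were these. With median-centred arrays 1238 probe sets were lower in the difference of differences, and after quantile normalization 274 were lower by 2-fold or more in EGC. The fit with the replicate block and only the groups compared called 2193 probe sets in the difference of differences, 1057 of them lower. The same block gave 3135 probe sets between EGC and male PGC, 1634 higher and 1501 lower. Without EGC replicate 3, 1080 probe sets were lower between EGC and male PGC. Leaving out 1 array gave 2224 to 2756 called, 1144 to 1316 higher and 1080 to 1440 lower, with 485 to 571 and 161 to 202 at 2-fold or more. For the difference of differences it gave 2379 to 3589 called, 1065 to 1443 higher and 1314 to 2146 lower, with 716 to 849 and 365 to 423 at 2-fold or more. Median centring turned the majority of calls from lower to higher in both comparisons (1600 higher and 1166 lower, then 1700 and 1238). Of the 2491 called genes, 72.6% (without EGC replicate 3) to 100% were called under each alternative. Of 336 genes named or listed as members, 105 had a changed call under at least 1 alternative. Among the values of the 336 genes under all alternatives, 5193 kept direction and call, 438 lost the call, 2 gained it and 2 reversed. The reversed ones were Eif4e (-0.02) and Gnas (-0.00), both as means over probe sets. Eif2s3y (-0.77) was called only when the 6 arrays were fitted alone (adjusted p = 0.0133, or 0.0173 with the replicate block). Of 39 named called genes with further probe sets, 17 had another called the same way, 21 had none called and 1, Dnmt3a, had 1 called the opposite way. The cause of these changes was not tested.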

Other observations

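With values as deposited, 59 of 259 measured genes of the X chromosome were called higher in EGC than in male PGC and 27 lower, with a median difference of -0.05. Over all genes 14.6% were higher and 15.6% lower, with a median of -0.08. The autosomes leaned both ways: chromosome 11 had 86 higher and 122 lower of 705 and chromosome 7 had 66 higher and 127 lower of 654, while chromosome 10 had 65 higher and 48 lower of 370 and chromosome 12 had 46 higher and 31 lower of 259. The X-linked genes Prps1 and Pgk1 rose, while Rhox5, Xlr4a, Hmgb3 and Pdk3 fell. Both groups are male by their labels, and no test of the chromosome was run.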
